A study of Mus musculus with 6 samples.

Results

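The genes described here are the 35 suprabasal and cornifying epidermis genes of a fixed list, looked up by Entrez gene number among the 36528 genes of each count table. Of the 35 genes, 34 had a row, 30 passed the filter on low counts and were tested, and the expression of Flg2 was not analysed here. RNA with a poly(A) tail was sequenced from skin cells sorted as CD49f-positive, CD34-positive and GFP-negative, which are hair follicle stem cells of the bulge. All the mice were Lgr5-DTReGFP mice, in which the gene Lgr5 drives the diphtheria toxin (DT) receptor and the eGFP reporter, so that DT acts on cells with active Lgr5. One group was given saline (NaCl) and the other DT (3 libraries each). The age of the mice, the dose of DT, the time of collection and whether libraries came from separate animals are not stated in the labels. The tests therefore weigh differences against variation among libraries that could be technical only.

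Keratinocytes of the epidermis divide in the basal layer and then move outward. In the spinous layer they switch from the basal keratins Krt5 and Krt14 to Krt1 and Krt10. In the granular layer they make filaggrin, loricrin and other proteins that transglutaminases link into the cornified envelope, and they secrete lipids that seal the space between the dead cells. Kallikrein proteases later cut the desmosomes that hold these cells, and the inhibitor encoded by Spink5 restrains them. Bulge stem cells are basal cells of the follicle and are not known for this programme, which in the follicle belongs to the upper part of the canal.

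The libraries held 15300755 to 25558859 reads in genes. Levels are given as CPM, the reads of a gene scaled to a common library size by TMM, when 1 gene is compared between libraries, and as the deposited RPKM, which is per length of the gene, when genes are compared with each other. A gene is said to rise or fall where the Benjamini-Hochberg adjusted p of edgeR's quasi-likelihood test over all 15132 genes tested was under 0.05. Lgr5, the targeted gene, fell by 1.76 on the log2 scale (adjusted p = 0.000864), with 24.0 ± 7.20 CPM with saline and 7.11 ± 0.143 CPM with DT (SD, n = 3). The sort markers Cd34, with a log2 fold change of -0.26 (adjusted p = 0.264), and Itga6, with -0.31 (adjusted p = 0.16), did not pass the test. The bulge keratin Krt15 was at 19019 RPKM in saline and 18197 RPKM in DT, with overlapping groups (adjusted p = 0.854). All 10 bulge markers on a fixed list were detected, and 5 of them fell while 0 rose, where 11.9% of all genes tested fell and 17.2% rose. Saline library 1 stood apart from saline libraries 2 and 3 on the second axis of variation (14.2% of the variance, at 56.9 against -30.7 and -34.5).

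Of the 35 genes, 11 fell in the DT libraries (Krt1, Krt10, Krt77, Sbsn, Calm4, Calml3, Asprv1, Klk5, Klk7, Klk8 and Elovl4) and 2 rose (Aloxe3 and Spink5). The other 17 tested did not pass. The suprabasal keratins fell 2.46-fold to 2.67-fold, while the lipoxygenase gene Aloxe3 rose 10.2-fold and the protease inhibitor gene Spink5 2.43-fold. Over all genes tested, 29.0% passed, 11.9% as lower and 17.2% as higher in DT, against 36.7% and 6.67% of the 30 members tested. The members were chosen with earlier results of these data known, so these shares are a description only, and no test of the list was made. The median log2 fold change was -0.54 over these 30 genes and -0.01 over all genes tested. The libraries of the groups did not overlap for 11 members as lower and 2 as higher. Of all genes tested 45.9% were so separated, 20.5% as lower and 25.4% as higher. Without saline library 2 only 6 members fell, and without DT library 2 only 5 fell. Calls over all genes were lost too, with 1040 and 996 lower in these settings against 1795 with all 6 libraries. Of all genes tested 2600 rose and 1795 fell, or 2099 and 2316 with scaling by library size only, where 12 members fell and 2 rose. Sample identifiers in the labels form 2 number series, and within the larger, with 2 libraries a group, 7 members fell and 2 rose. Over all genes 473 fell and 1097 rose there. The smaller series, with 1 library a group, allowed no test.

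**Figure D1:**
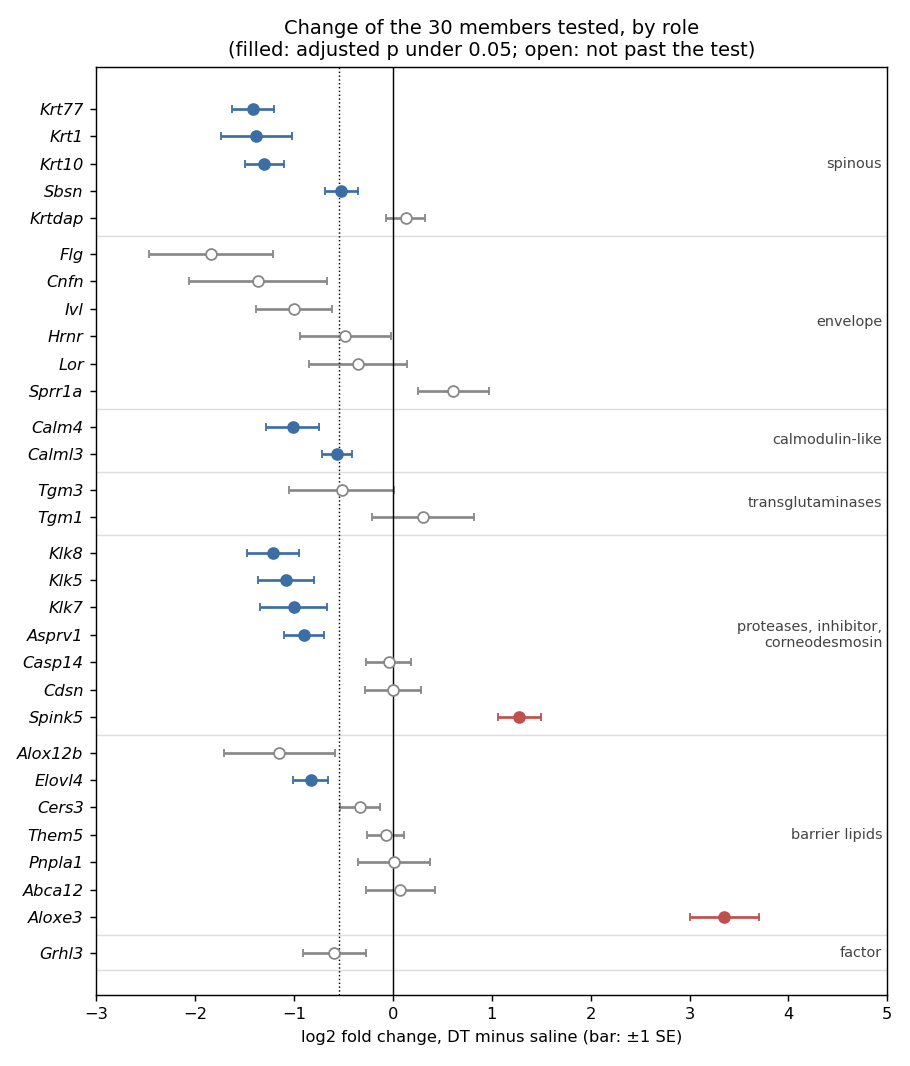
Log2 fold change of the 30 members tested (DT minus saline, horizontal axis, with ±1 SE as bars), grouped by role; filled points passed the test, and the dotted line is the median of -0.54. The keratins, calmodulin-like genes and kallikreins lie left of 0, Aloxe3 at 3.35 and Spink5 at 1.28 lie to the right, and the envelope genes are all open points.

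Markers of other cells that the sort could hold moved in the same libraries, where 11.9% of all genes tested fell and 17.2% rose. The summed level of 4 T cell markers was 20.8 to 65.3 CPM with saline and 12.1 to 19.5 CPM with DT, and 3 of the 4 fell. The 8 markers of Langerhans and other myeloid cells summed to 261 to 367 CPM with saline and 223 to 269 CPM with DT, with 3 lower and 1 higher of 7 tested. The higher one, Itgam, had 0, 12 and 11 reads in saline and 84, 93 and 48 in DT. Of 8 markers of the upper follicle 4 fell, among them Krt79, a keratin of the infundibulum, at 64.4 ± 24.4 CPM with saline and 24.9 ± 5.03 CPM with DT. The summed level of these 8, most of it Krt17, was 22331 to 25374 CPM with saline and 21770 to 30356 CPM with DT. All 8 markers of cycling cells rose, from a sum of 84.1 to 116 CPM to one of 577 to 1096 CPM. Fibroblast markers summed to 23.5 to 41.3 CPM and 9.47 to 16.9 CPM, with Lum at 0 in every library, and melanocyte markers to 99.6 to 140 CPM and 64.0 to 83.5 CPM. Most of the fibroblast sum was Col1a2 (28.8 and 12.3 CPM on average) and most of the melanocyte sum was Mitf (103 and 66.9 CPM). Among those tested 1 of 2 fibroblast markers and 3 of 4 melanocyte markers fell, and 0 rose. Smooth muscle and pericyte markers summed to 2.54 to 4.78 CPM and then 27.0 to 109 CPM, nearly all of it Acta2 in DT (0.867 and 71.0 CPM on average), while Myh11 averaged 0.318 and 0.257 CPM, Des had 3 reads in all and Rgs5 was at 0 in every library. Of the markers of the companion layer and inner bulge 3 of 5 rose (Krt6a, Krt6b and Krt16), while Krt75 (adjusted p = 0.244) and Fgf18 (adjusted p = 0.795) did not pass. The sum of the 5 was 295 to 600.4 CPM with saline and 2152 to 2489 CPM with DT, most of it Krt6a (453 and 2158 CPM on average). Endothelial markers (2.68 to 13.1 CPM, then 6.56 to 8.73 CPM), sebaceous markers (151 to 199 CPM, then 148 to 192 CPM) and inner root sheath markers (17.5 to 24.4 CPM, then 19.4 to 25.3 CPM) had overlapping sums. Single genes within these lists still differed. Of 6 inner root sheath markers tested Krt27 (log2 1.65) and Krt73 (log2 3.17) rose and Krt71 (log2 -0.97) fell. Krt73 passed the filter on low counts only through the DT libraries, with 0, 6 and 14 reads in saline and 33, 63 and 58 in DT. Of 6 sebaceous markers tested Far2 rose and Mc5r fell. Mc5r passed the filter only through the saline libraries, with 21, 16 and 29 reads there and 5, 2 and 6 in DT. Of 3 endothelial markers tested 0 passed. The part of these cells in the results was not tested, and in sorted bulk RNA fewer cells of a type and less RNA per cell cannot be told apart.

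Transcripts of the suprabasal programme were present at very different levels in the sorted cells. The most abundant per length was Krtdap, which encodes a small secreted protein of differentiating keratinocytes, at 980.3 ± 122 RPKM in saline. Sbsn, encoding the secreted protein suprabasin, followed at 306 ± 46.4 RPKM, then Calml3 at 101 ± 12.8 RPKM and Calm4 at 83.8 ± 17.2 RPKM, 2 neighbours whose ranges overlapped. The keratins stood far below these, with Krt77 at 34.7 ± 8.46 RPKM, Krt10 at 23.0 ± 5.64 RPKM and Krt1 at 10.5 ± 6.38 RPKM. Late envelope genes were near the floor of the data, with loricrin (Lor) at 0.667 ± 0.227 RPKM and filaggrin (Flg) at 0.314 ± 0.0946 RPKM. In DT Aloxe3 moved from the 18th to the 5th place of the 34 genes with a row, and Spink5 from the 7th to the 4th. As a share of the basal keratin Krt5, measured per length in the same library, Krt10 was at 0.601 ± 0.160% in saline and 0.208 ± 0.0394% in DT. Krt5 itself had a log2 fold change of 0.25 and did not pass (adjusted p = 0.195), and the basal keratin Krt14 rose by 1.78. The groups of Krt5 did not overlap, with 8658 to 9551 CPM in saline and 9930 to 11854 CPM in DT, as for 25.4% of all genes tested. The share of Krt10 thus also holds this difference in Krt5.

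**Figure D2:**
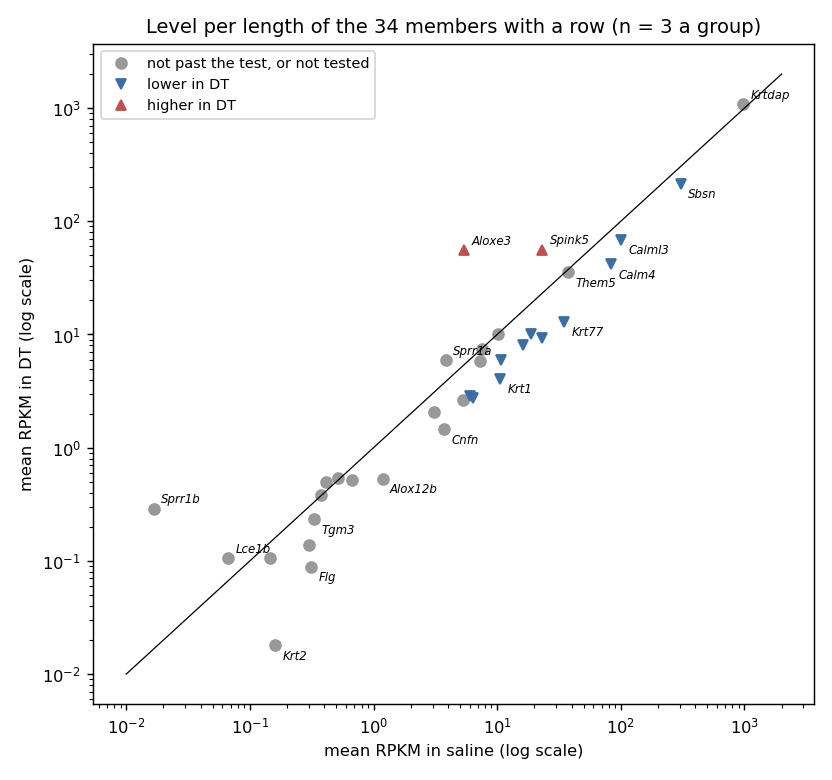
Mean deposited RPKM (n = 3 a group) of the 34 members with a row in saline (horizontal) and DT (vertical), both on log scales, with the line of equal level. Most members lie under the line, from Sbsn at 306 down to Hrnr at 0.147 RPKM in saline. The called Aloxe3 and Spink5 lie above it, as do Krtdap, Sprr1a, Sprr1b, Lce1b, Tgm1, Abca12 and Pnpla1, which did not pass or were not tested.

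The suprabasal keratins fell together. Krt1 and Krt10 form the keratin pair of the spinous layer, and Krt77 is a further type II keratin. Krt10 (Entrez 16661, chromosome 11 from 99385254 to 99397449 in GRCm38) was at 75.1, 57.4 and 46.1 CPM in saline libraries 1 to 3 and at 21.5, 26.7 and 24.4 CPM with DT libraries 1 to 3. Each saline library was above every DT library, and the fall was 1.30 on the log2 scale (SE 0.20, adjusted p = 0.00139). Krt77 (Entrez 406220, chromosome 15 from 101858731 to 101869706) was at 90.8, 86.8 and 55.9 CPM with saline and 31.2, 23.4 and 32.8 CPM with DT (log2 -1.41, SE 0.21, adjusted p = 0.00128). Its neighbour Krt1 (Entrez 16678, chromosome 15 from 101845426 to 101850786), 7944 bases away, had 46.6, 19.4 and 16.4 CPM with saline and 11.6, 8.80 and 11.2 CPM with DT. Krt1 was thus uneven among saline libraries, with library 1 far above the others, and its log2 fold change of -1.38 (SE 0.36, adjusted p = 0.018) became -0.78 without saline library 1 and missed the test without DT library 2 (adjusted p = 0.0714). The ratio of Krt1 to Krt10 per length was 43.5 ± 15.6% in saline and 44.0 ± 10.5% in DT. Krt2, the type II keratin of the upper layers, had 18, 11 and 3 reads in saline and 1 read in each DT library, too few for the filter.

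Sbsn and Krtdap lie on chromosome 7 on either side of Dmkn. Sbsn (Entrez 282619, from 30732674 to 30756134) had 848, 1062 and 800.3 CPM with saline and 755, 526 and 606 CPM with DT. The groups did not overlap, and the fall of 0.52 on the log2 scale passed narrowly (SE 0.17, adjusted p = 0.0413) but not without saline library 2 (adjusted p = 0.168), DT library 2 (adjusted p = 0.105) or DT library 3 (adjusted p = 0.105). The annotation of Sbsn overlaps that of Gapdhs, which had 166 to 620 reads a library, so some reads may be hard to assign. Krtdap (Entrez 64661) had 509, 512 and 406 CPM with saline and 449, 688 and 423 CPM with DT, with overlapping groups (log2 0.13, SE 0.19, adjusted p = 0.652, and log2 -0.16 without DT library 2). The difference between the 2 genes was not tested. Dmkn, encoding dermokine, between them was at 2860 ± 143 CPM with saline and 3003 ± 231 CPM with DT (adjusted p = 0.702).

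Promoter sequences are shown for the genes past the test with the smallest p that have an entry in the RefSeq table of GRCm38.p6, to let the letters upstream of genes that fell together be compared. Of the 35 genes, 31 matched the table, and Krt1, Calml3, Spink5 and Aloxe3 are named only. Each sequence below covers the 250 bases before the table's transcript start, which for Krt10 and Klk8 lies inside the annotated span of the gene, 5′ to 3′ on the gene's strand, and capitals mark a match to a TATA box (TATAAA), an AP-1 site (TGANTCA) or a Grainyhead site (AACCNGTT), searched on both strands. The windows are chr15:101869706-101869955 on the minus strand for Krt77, chr11:99389365-99389614 on the minus strand for Krt10, chr9:83806306-83806555 on the minus strand for Elovl4, chr7:43797327-43797576 on the plus strand for Klk8 and chr6:86627924-86628173 on the plus strand for Asprv1.
Krt77: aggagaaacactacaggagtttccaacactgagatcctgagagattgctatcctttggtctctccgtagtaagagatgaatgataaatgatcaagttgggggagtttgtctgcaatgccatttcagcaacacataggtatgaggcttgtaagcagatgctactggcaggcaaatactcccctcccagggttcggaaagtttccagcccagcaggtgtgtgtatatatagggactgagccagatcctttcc
Krt10: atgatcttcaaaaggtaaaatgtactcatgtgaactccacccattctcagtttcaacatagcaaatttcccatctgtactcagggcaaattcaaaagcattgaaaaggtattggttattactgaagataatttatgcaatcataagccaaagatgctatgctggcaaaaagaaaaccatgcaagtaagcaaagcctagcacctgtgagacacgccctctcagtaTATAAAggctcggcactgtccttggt
Elovl4: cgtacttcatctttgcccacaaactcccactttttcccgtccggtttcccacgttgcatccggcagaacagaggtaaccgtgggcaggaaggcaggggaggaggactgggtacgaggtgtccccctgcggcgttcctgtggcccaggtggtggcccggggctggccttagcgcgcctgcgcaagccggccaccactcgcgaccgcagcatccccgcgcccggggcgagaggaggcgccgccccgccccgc
Klk8: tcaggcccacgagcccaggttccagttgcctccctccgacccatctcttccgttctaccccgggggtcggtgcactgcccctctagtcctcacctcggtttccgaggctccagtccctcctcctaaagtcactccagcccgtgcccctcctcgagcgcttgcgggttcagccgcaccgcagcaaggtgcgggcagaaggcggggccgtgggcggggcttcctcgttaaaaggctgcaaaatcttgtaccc
Asprv1: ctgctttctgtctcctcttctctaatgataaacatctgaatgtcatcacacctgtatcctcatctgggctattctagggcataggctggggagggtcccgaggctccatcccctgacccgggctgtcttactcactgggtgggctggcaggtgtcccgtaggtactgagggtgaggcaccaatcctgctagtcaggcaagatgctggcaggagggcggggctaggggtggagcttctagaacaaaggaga

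In the sequences of these 5 genes 1 motif was matched, the TATA box of Krt10 from 26 to 21 bases before its start. Their GC content ran from 39.6% in Krt10 and 46.8% in Krt77 to 65.2% in Klk8 and 69.6% in Elovl4, with a median of 52.4% over all 32851 windows of the table. Among the 31 matched genes, which have 33 windows, 9 held a TATA box, a motif present in 12.4% of all windows. Of these 9, 8 were genes that did not pass the test or were not tested (Flg, Hrnr, Ivl, Krtdap, Lor, Sprr1a, Sprr1b and Tgm3). Genes that fell made up only 9 of the 31 matched, and no test of motifs was made. An AP-1 match was held by 8 of the 31 (Flg, Flg2, Ivl, Krtdap, Lor, Sbsn, Sprr1a and Sprr1b), against 6.75% of all windows. The Grainyhead letters, present in 1.79% of all windows, were matched in 0 of the 31. A match describes letters and not a bound site.

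Transcripts of the listed structural proteins of the cornified envelope were sparse, and 0 of the 6 genes tested passed (10 were listed), where 29.0% of all genes tested passed. This does not hold for all envelope genes. Of 33 envelope and late structural genes outside the list 12 were tested and 7 fell, where 11.9% of all genes tested fell, while 10 had 0 reads in every library. Among the 7 was Ppl, at 275 CPM with saline and 136 CPM with DT. Ivl (Entrez 16447, chromosome 3 from 92570899 to 92573790), encoding involucrin, an early scaffold of the envelope, was at 7.50, 17.2 and 10.7 CPM with saline and 4.27, 4.23 and 9.06 CPM with DT. DT library 3 lay above saline library 1, and the log2 fold change of -0.997 missed the threshold (SE 0.38, adjusted p = 0.0772), while without saline library 1 (adjusted p = 0.0353) or DT library 3 (adjusted p = 0.03) it passed. Flg, whose product bundles keratin filaments, had 31, 50 and 37 reads in saline and 3, 10 and 16 reads in DT. Its groups did not overlap, and its adjusted p lay at the threshold without being under it (log2 -1.84, SE 0.63, adjusted p = 0.0500005), passing without saline library 1 (adjusted p = 0.0463). Flg and Hrnr are built of long repeats. Reads that align to 1 gene model only were counted, and whether reads with several places within 1 gene were kept is not stated. An under-count of these genes could therefore not be judged. Hrnr (hornerin), Lor and Cnfn (cornifelin) had 3 to 83 reads a library, with log2 fold changes of -0.48, -0.36 and -1.37 and adjusted p from 0.166 to 0.624. Cnfn had 3 reads in DT library 1 and 22 and 43 in DT libraries 2 and 3.

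Sprr1a, encoding a small proline-rich envelope protein, had 50 to 111 reads in saline and 79 to 120 in DT (log2 0.61, SE 0.36, adjusted p = 0.226), with overlapping groups. Sprr1b had 0, 0 and 1 reads in saline and 7, 4 and 4 in DT, too few for the filter, although the groups did not overlap. These 2 genes are close relatives, so reads that align to both would not be in the counts. The late envelope genes Lce1a1 and Lce1b had 0 to 10 reads a library and were not tested. The cross-linking enzymes on the list also stayed near the floor, with 17 to 55 reads a library for Tgm1 (log2 0.30, adjusted p = 0.691) and 17 to 51 for Tgm3 (log2 -0.52, adjusted p = 0.492). The transglutaminase gene Tgm5, outside the list, was abundant, at 2479.6 CPM with saline and 1687 CPM with DT, and fell (log2 -0.56, adjusted p = 0.0122). The SE of the log2 fold change was 0.46 to 0.69 for Lor, Hrnr, Cnfn, Tgm1 and Tgm3. Even changes larger than the SE could be missed at this depth, since Cnfn, which moved by -1.37, did not pass. The lack of a call for these genes therefore does not show that they were unchanged.

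Both calmodulin-like genes, which encode calcium-binding proteins of differentiating keratinocytes and lie 33438 bases apart on chromosome 13, fell. Calm4 (Entrez 80796, from 3837757 to 3838671) was at 62.8, 95.3 and 86.6 CPM with saline and 26.7, 36.5 and 57.8 CPM with DT (log2 -1.01, SE 0.27, adjusted p = 0.018). The highest DT library came close to the lowest saline library without reaching it, and the call was lost without saline library 2 (adjusted p = 0.0653) or DT library 2 (adjusted p = 0.0735). Calml3 (Entrez 70405, from 3802893 to 3804318) had 171, 157 and 132 CPM with saline and 118, 94.7 and 97.7 CPM with DT (log2 -0.56, SE 0.15, adjusted p = 0.018). Its groups did not overlap either, and it missed the test without saline library 2 (adjusted p = 0.0676), DT library 2 (adjusted p = 0.052) or DT library 3 (adjusted p = 0.0656).

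**Figure D3:**
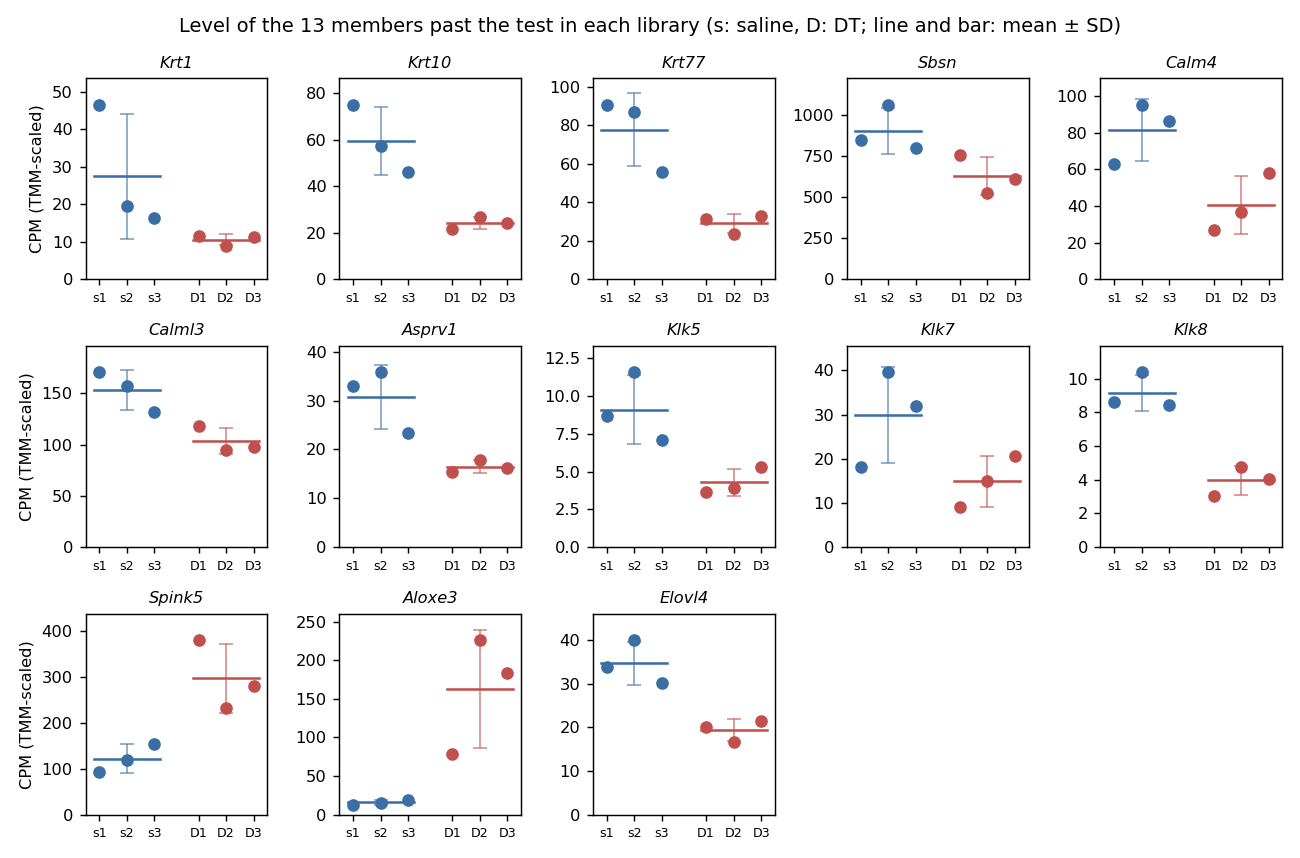
Level in CPM (vertical axes, from 0) of the 13 members past the test in saline libraries 1 to 3 (s1 to s3) and DT libraries 1 to 3 (D1 to D3), in blue and red, with the mean as a line and the SD as a bar (n = 3). Saline points lie above DT points for 10 of the 11 that fell, Klk7 overlaps at 18.2 and 20.7 CPM, and Aloxe3 and Spink5 show the opposite order.

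Over all genes tested 11.9% fell, and of the 5 proteases of the cornified layer on the list 4 fell. They include the kallikreins Klk5, Klk7 and Klk8, which digest the links between corneocytes, while Spink5, whose product LEKTI inhibits kallikreins, rose. Spink5 (Entrez 72432) was at 93.0, 120 and 154 CPM with saline and 380 (379.5), 231 and 279 CPM with DT (log2 1.28, SE 0.22, adjusted p = 0.00264). Every DT library was above every saline library, and the rise passed under all 16 alternatives tried. Klk8 (Entrez 259277, chromosome 7 from 43797532 to 43803826) was at 8.58, 10.4 and 8.42 CPM with saline and 3.05, 4.77 and 4.03 CPM with DT (log2 -1.21, SE 0.26, adjusted p = 0.00809). Klk5 (Entrez 68668, from 43834157 to 43851181) had 8.66, 11.6 and 7.08 CPM against 3.66, 3.89 and 5.27 CPM (log2 -1.08, SE 0.28, adjusted p = 0.0177). Neither gene's groups overlapped, but Klk5 was lost without saline library 2 (adjusted p = 0.084) or DT library 2 (adjusted p = 0.0649). Klk7 (Entrez 23993, from 43811294 to 43816387), at 18.2, 39.5 and 32.0 CPM with saline and 9.05, 14.9 and 20.7 CPM with DT, had overlapping groups and the largest adjusted p of the genes that fell (log2 -1.003, SE 0.34, adjusted p = 0.0477). It missed the test without saline library 2 (adjusted p = 0.169) or 3 (adjusted p = 0.107), without DT library 1 (adjusted p = 0.105) or 2 (adjusted p = 0.126), and with limma-voom (adjusted p = 0.0598).

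Asprv1 and Casp14 encode enzymes that act on profilaggrin, and the difference between them was not tested. Asprv1 (Entrez 67855, chromosome 6 from 86628174 to 86629710), a retroviral-type protease that cleaves profilaggrin, fell from 33.1, 35.8 and 23.3 CPM with saline to 15.3, 17.9 and 16.3 CPM with DT (log2 -0.90, SE 0.20, adjusted p = 0.00849). The groups were apart, and the 3 DT libraries lay close together. Casp14, encoding the caspase of cornification, was at 16.5, 20.8 and 25.2 CPM with saline and 16.6, 18.6 and 25.4 CPM with DT (log2 -0.04, SE 0.23, adjusted p = 0.899). Both groups thus spanned nearly the same range. Cdsn, encoding the adhesion protein corneodesmosin that kallikreins cut, had 24.5, 38.9 and 26.05 CPM with saline and 42.8, 19.9 and 26.6 CPM with DT (log2 0.00067, SE 0.28, adjusted p = 0.999). DT library 1 held its highest value and DT library 2 its lowest.

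Of the 7 barrier lipid genes, all tested, 1 fell and 1 rose, where 11.9% of all genes tested fell and 17.2% rose. The products of Alox12b and Aloxe3 act one after the other on the linoleate of acylceramides, and their genes lie next to each other on chromosome 11 with 7956 bases and 0 annotated genes between them. Aloxe3 (Entrez 23801, from 69125417 to 69149115) was at 13.1, 15.45 and 19.3 CPM with saline and 78.5, 226 and 184 CPM with DT (log2 3.35, SE 0.35, adjusted p = 0.000191). DT library 1 had less than either other DT library but far more than the highest saline library, and the rise passed under all 16 alternatives, with a log2 fold change from 3.02 to 3.68. Alox12b (Entrez 11686, from 69157072 to 69169791) was low, with 28, 98 and 74 reads in saline and 16, 17 and 52 in DT, and overlapping groups (log2 -1.15, SE 0.56, adjusted p = 0.153). It fell past the threshold without saline library 1 (log2 -1.54, adjusted p = 0.0379). Per length, Alox12b was at 10.5, 34.7 and 19.7% of Aloxe3 in the saline libraries and at 1.13, 0.597 and 1.34% in the DT libraries.

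The remaining lipid genes mostly did not pass. Elovl4 (Entrez 83603, chromosome 9 from 83778692 to 83806305), which elongates very long fatty acids for ceramides, fell from 33.9, 40.0 (39.97) and 30.1 CPM with saline to 20.1, 16.7 and 21.5 CPM with DT (log2 -0.83, SE 0.18, adjusted p = 0.00764). Its groups did not overlap and it passed under all 16 alternatives. Cers3, the ceramide synthase that uses these fatty acids, was at 25.2, 33.8 and 28.9 CPM with saline and 19.8, 20.7 and 29.3 CPM with DT (log2 -0.33, SE 0.20, adjusted p = 0.248). DT library 3 lay within the saline range and the other DT libraries under it. Them5, an acyl-CoA thioesterase gene, had 42.1, 63.4 and 43.5 CPM with saline and 46.2, 42.2 and 53.3 CPM with DT (log2 -0.07, SE 0.19, adjusted p = 0.802). Abca12, the lipid transporter of lamellar granules, had 71 to 152 reads a library and its log2 fold change was 0.08 (SE 0.34, adjusted p = 0.884). Pnpla1, which makes acylceramides, had 33 to 63 reads and its log2 fold change was 0.01 (SE 0.36, adjusted p = 0.983).

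Grhl3, a transcription factor of barrier formation and the only such factor on the list, was at 9.49, 10.7 and 17.1 CPM with saline and 6.002, 7.05 and 11.6 CPM with DT (log2 -0.59, SE 0.32, adjusted p = 0.188). DT library 3 lay above saline libraries 1 and 2, so the groups overlapped.

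Relative to the mean of the saline libraries, the median of the 5 spinous genes tested was 0.25, 0.11 and -0.34 in saline libraries 1 to 3 and -1.06, -1.11 and -1.10 in the DT libraries. This median was set by Krt1 in DT libraries 1 and 3 and by Krt10 in DT library 2, and the genes differed within it, with Krtdap at -0.08, 0.54 and -0.16 and Sbsn at -0.25, -0.77 and -0.56. The 6 envelope genes stood at -0.26, 0.32 and -0.06 in saline and -1.05, -0.59 and -0.19 in DT, a wide spread in which DT library 3 lay inside the saline range. The 7 genes of proteases, inhibitor and corneodesmosin had medians of -0.25 to 0.24 in saline and -0.96, -0.74 and -0.45 in DT. Saline library 1, which was the highest of its group for the keratins, was the lowest saline library for 17 of the 30 members. Saline library 2 was the highest of its group for 17 members, and DT library 3 the highest of its group for 16. For all genes tested the medians of the 6 libraries lay between -0.02 and 0.05.

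**Figure D4:**
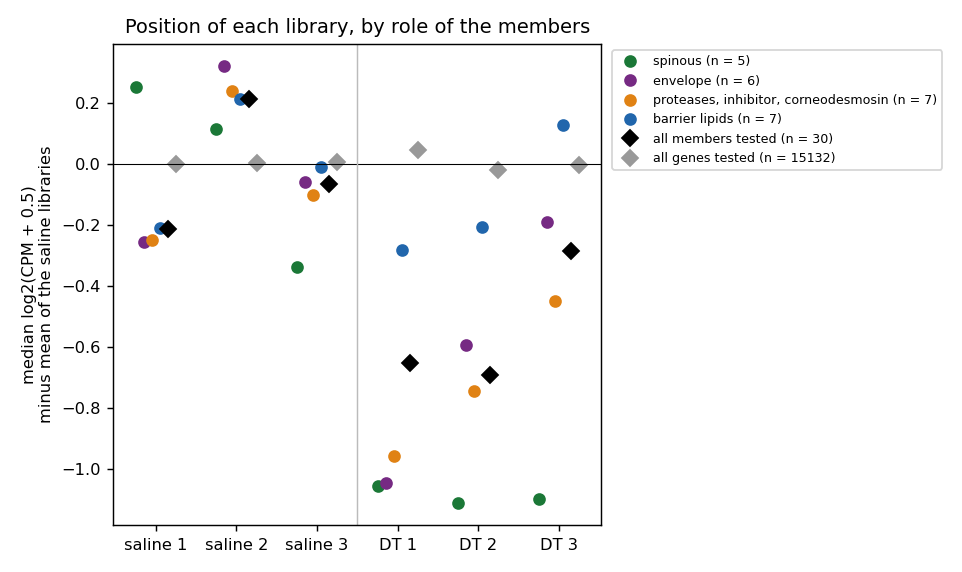
Median over the genes of a role, in each library, of log2(CPM + 0.5) minus the mean of the 3 saline libraries (vertical axis), for 4 roles, all 30 members tested and all 15132 genes tested. The median of the spinous genes lies near -1.1 in every DT library, that of the envelope genes ranges from -1.05 to -0.19 there, and that of all genes tested lies near 0.

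Genes of the same programme outside the 35, from 5 lists, were read against the same background of 11.9% lower and 17.2% higher. Of 33 other envelope and late structural genes 12 were tested, 7 fell and 0 rose, while 10 had 0 reads in every library. Hal, the histidase that makes urocanic acid, fell (log2 -1.93, adjusted p = 0.00416), as did the plakin gene Ppl (log2 -1.014, adjusted p = 0.00198), the keratin gene Krt78 (log2 -1.35, adjusted p = 0.00986) and the transglutaminase gene Tgm5 (log2 -0.56, adjusted p = 0.0122). Tgm5 was at 2480 (2479.6) ± 142 CPM with saline, and 1687 ± 192 CPM with DT. Of 17 other barrier lipid genes 16 were tested, 5 fell and 2 rose. The lipid phosphatase gene Plpp3 fell (log2 -1.54, adjusted p = 9.2e-05), as did the epoxide hydrolase gene Ephx3 (log2 -1.05, adjusted p = 0.0133, and 0.0539 without DT library 3). Sptlc2, a subunit of the enzyme that starts sphingolipid synthesis, rose by 1.05 (adjusted p = 0.00228), and so did Abhd5 by 0.49 (adjusted p = 0.0234), a call lost when any 1 library other than DT library 1 was left out (adjusted p up to 0.113).

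Of 17 other proteases and inhibitors 13 were tested, with 2 lower and 4 higher, 1 of which (Klk6) passed the filter on low counts only through the DT libraries. Klk10 rose by 2.09 (adjusted p = 0.000254) and the lysosomal protease gene Ctsd by 0.71 (adjusted p = 0.00249), while the cystatin gene Cst6 fell by 0.78 (adjusted p = 0.0073). Klk6 had 0 reads in every saline library and 48, 23 and 38 reads in the DT libraries, which is at least 40.8-fold higher against 3 counts over the saline group. Among 13 adhesion genes 12 were tested. The desmosomal cadherin gene Dsg1a fell by 1.12 (adjusted p = 0.00681) and Lypd3 rose by 0.75 (adjusted p = 0.00913), while the other 10 did not pass. Of 18 transcription factors of epidermal differentiation, all tested, 7 fell and 0 rose. The 4 with the smallest p were Maf (log2 -1.78, adjusted p = 0.000156), Prdm1 (log2 -1.48, adjusted p = 0.000581), Tfap2a (log2 -1.12, adjusted p = 0.00235) and Gata3 (log2 -1.09, adjusted p = 0.00383). Gata3 is also a factor of the inner root sheath and Prdm1 of sebaceous and other skin cells, and neither is particular to the suprabasal layers. Within the larger identifier series Krt78, Tgm5, Abhd5, Ephx3, Ctsd and Cst6 did not pass (adjusted p from 0.0568 to 0.191).

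By position, 9 of the 35 genes lie in the epidermal differentiation complex on chromosome 3, and Them5 lies further along the same chromosome. Of these 10 genes on chromosome 3, 6 were tested and 0 passed, where 29.0% of all genes tested passed and 11.9% fell. Of the 7 on chromosome 7, all tested, 4 fell, and of the 3 on chromosome 11 1 fell and 1 rose. On chromosomes 15 and 13 both genes tested fell. These counts are too small to set a chromosome apart, and no test of position was made.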

How the data were processed

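The submitters' processing notes name the aligner GSNAP and the build GRCm38. Per the file headers, a count is of the reads that align to 1 gene model only, and the deposited RPKM value was adjusted by the authors with a size factor of the library. Versions, gene annotation and use of strand: not given in the sources used here. Symbols and positions came from RefSeq GRCm38.p6, which names 31049 of the 36528 listed identifiers.

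Counts were tested with edgeR 4.0.16 (R 4.3.3): filterByExpr (min.count 10, min.total.count 15), TMM scaling and the robust quasi-likelihood test over 6 libraries without covariates, with 4 residual degrees of freedom. The SE is the log2 fold change divided by the root of F. All 30 members tested reached the filter's level in DT libraries too, though Flg and Cnfn did so in 2 of 3. No library was a copy of another: within groups, chi-square divided by its degrees of freedom ran from 19.9 to 59.98. The members and lists were chosen with earlier results of these data known. Members past the test, and tested ones whose higher group averaged 5 CPM or more, are given by library, with up to 4 genes past the test with the smallest p from each further list; Krt79, Dmkn and Klk11 were chosen after their values were seen. Alternatives used DESeq2 1.42.0 and limma 3.58.1.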

Additional observations from a re-analysis of the deposited data

How the results depend on the processing

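Of the 13 members past the test, 6 (Krt10, Krt77, Asprv1, Spink5, Aloxe3 and Elovl4) kept their direction and call under all 16 alternatives, and none of the 13 changed direction. The count of members that fell was 11, against 7 in the larger identifier series and 5 to 14 with 1 library left out, where the count that rose stayed at 2. All genes gave 1097 higher and 473 lower calls in the larger series, and 1564 to 2826 higher and 996 to 2045 lower with 1 library left out. The lower calls fell to 1040, 996 and 1017 without saline library 2, DT library 2 and DT library 3, and the higher calls to 1625 and 1564 without DT libraries 2 and 3. The median over the members tested ran from -0.76 to -0.53 with 1 library left out. Besides the calls named with their genes, Klk7 missed the test without a filter (adjusted p = 0.0776), with limma on log2(RPKM + 1) (adjusted p = 0.0654) or with 0.1 as the pseudocount (adjusted p = 0.0628), and Klk7, Klk8, Sbsn and Calml3 in the larger series (adjusted p = 0.0831, 0.0706, 0.158 and 0.0931). Flg passed with DESeq2 (adjusted p = 0.0363), limma-voom (adjusted p = 0.0404), library size only (adjusted p = 0.0432), no filter (adjusted p = 0.0393) and limma on log2(RPKM + 0.1) (adjusted p = 0.0442), and Ivl with DESeq2 (adjusted p = 0.0369) and no filter (adjusted p = 0.0425). Krt2, under the filter, was tested in 6 alternatives and passed in 1, without saline library 3 (log2 -3.52, adjusted p = 0.0333), with adjusted p from 0.0927 to 0.157 in the other 5.

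Changes of direction were seen only among genes that did not pass, and their log2 fold changes were as follows. Cdsn had -0.0064 with DESeq2 size factors, -0.0077 with DESeq2, -0.0086 with limma-voom, -0.10 with library size only, -0.030 without a filter or with a mean count of 10, -0.034 and -0.040 with limma on log2(RPKM + 1) and log2(RPKM + 0.1), and -0.012 in the larger series. Pnpla1 had -0.083 with library size only, -0.0095 without a filter, -0.0081 with a mean count of 10 and -0.17 in the larger series. Abca12 had -0.011 with library size only and -0.14 in the larger series, Tgm3 0.029 in the larger series and Dmkn -0.029 with library size only. With 1 library left out the value ran from -0.36 to 0.24 for Cdsn, -0.15 to 0.15 for Pnpla1, -0.17 to 0.34 for Abca12, -0.058 to 0.54 for Tgm1, -0.27 to 0.11 for Casp14, -0.20 to 0.14 for Them5, -0.16 to 0.24 for Krtdap, -0.29 to 0.096 for Krt15 and -0.025 to 0.096 for Dmkn. Over all alternatives the lists of related genes gave 3 to 8 lower envelope genes, 1 to 5 lower and 1 to 3 higher lipid genes, 1 to 3 lower and 2 to 4 higher protease genes, 1 to 2 lower adhesion genes and 4 to 8 lower transcription factors. The cause was not tested. No paired analysis was possible because the labels carry no replicate numbers that pair libraries. With the identifier series as a block, 11 members fell and 2 rose, and all genes gave 2450 higher and 1667 lower calls. Genes with under 100 reads a library have SEs too large to show small changes.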

Other observations

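The kallikrein genes Klk5 to Klk14 lie side by side on chromosome 7 (43680880 to 43851181 in GRCm38), and neighbours among them differed in direction between DT and saline. In the order of the chromosome, Klk14, Klk13 and Klk12 were at means under 0.14 CPM and were not tested. Klk11 fell, with 12.2 ± 2.24 CPM with saline and 4.52 ± 2.12 CPM with DT (log2 -1.42, adjusted p = 0.0112, and 0.0528 without DT library 2). Next to it Klk10 rose, with 4.33 ± 0.49 CPM with saline and 18.5 ± 3.24 CPM with DT (log2 2.09, adjusted p = 0.000254). Klk9 stayed under 1 CPM on average in both groups and did not pass (adjusted p = 0.741), and Klk8 and Klk7 fell. Klk6, which lies between Klk7 and Klk5, was at 0 in every saline library and at 1.77 ± 0.416 CPM with DT, and Klk5 fell. The locus was singled out after its values were seen. Without strand-aware counting stated, reads from overlapping antisense transcripts could not be told apart.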
